A study of Homo sapiens with 6 samples.

Results

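The glutathione peroxidases, thioredoxin reductases and related selenoenzymes were followed at the mRNA level in KHM-5M cells, an anaplastic thyroid cancer line. The members are the genes of the deposited table with the symbols GPX1, GPX2, GPX3, GPX4, TXNRD1, TXNRD2, TXNRD3, MSRB1 and SEPHS2, taken by enzyme family. These are 9 of 17687 genes in the table, and 8 of the 9 passed the filter on low counts, which GPX2 did not. The cells grew in RPMI-1640 medium with fetal bovine serum and fell into 3 groups of 2 libraries. The control cells are labelled only as a control group. The methods name phosphate-buffered saline as the control in other assays of thyroid cancer cells. The SS cells received sodium selenite, an inorganic selenium salt. The SS+NAC cells received sodium selenite together with N-acetylcysteine (NAC), a thiol that supplies cysteine and scavenges oxidants. The selenite dose and the treatment time of the sequenced cultures are not given in the sources used here, no group received NAC alone, and all libraries come from 1 cell line. The comparisons ask what selenite does to transcript levels and which of its effects remain when a thiol is present. The libraries held 17645545 and 22016655 expected counts in control, 23493415 and 23810056 in SS, and 23682740 and 22617180 in SS+NAC.

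Selenoenzymes carry selenocysteine, the selenium analogue of cysteine, at their catalytic site. It is encoded by UGA, which otherwise ends translation, and a hairpin further along the mRNA recruits the factors that insert it. Glutathione peroxidases reduce peroxides with glutathione, thioredoxin reductases reduce thioredoxin with NADPH, and the thyroid, which makes hydrogen peroxide for hormone synthesis, is rich in selenium. SEPHS2 makes the selenium donor for selenocysteine and is itself a selenoprotein, so it belongs to both the enzymes and their supply line.

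The codon that defines the family is shown for every member, since its place in the message separates the subfamilies. The sequences were read from GENCODE release 29 transcripts (build GRCh38), 5′ to 3′, with the selenocysteine codon in capitals, written with T for U, and with the flanking coding bases in lower case. The runs of the thioredoxin reductases are shorter because they end with the stop codon.
GPX1: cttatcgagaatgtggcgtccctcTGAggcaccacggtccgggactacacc
GPX2: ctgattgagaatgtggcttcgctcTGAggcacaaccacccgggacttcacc
GPX3: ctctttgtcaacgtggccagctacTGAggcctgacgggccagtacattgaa
GPX4: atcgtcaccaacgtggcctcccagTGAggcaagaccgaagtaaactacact
TXNRD1: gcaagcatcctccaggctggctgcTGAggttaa
TXNRD2: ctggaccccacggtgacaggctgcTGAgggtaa
TXNRD3: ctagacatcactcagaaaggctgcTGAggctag
MSRB1: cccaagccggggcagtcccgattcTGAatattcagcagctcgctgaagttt
SEPHS2: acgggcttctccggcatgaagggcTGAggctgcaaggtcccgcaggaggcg

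In all 4 glutathione peroxidases the codon lay early in the coding sequence. It was codon 49 of 203 in GPX1 (chr3:49358132-49358134, minus strand), codon 40 of 190 in GPX2 (chr14:64942607-64942609, minus strand), codon 73 of 226 in GPX3 (chr5:151025469-151025471, plus strand) and codon 73 of 197 in GPX4 (chr19:1105403-1105405, plus strand). Around it, 16 of 48 flanking bases were identical in all 4 genes, and 39 of 48 were identical between GPX1 and GPX2. The thioredoxin reductases had it as the last codon but 1. It was codon 648 of 649 in TXNRD1 (chr12:104348413-104348415, plus strand), codon 523 of 524 in TXNRD2 (chr22:19877111-19877113, minus strand) and codon 642 of 643 in TXNRD3 (chr3:126607911-126607913, minus strand), whose annotated coding sequence opens with CTG. These 3 genes shared an unbroken run of 11 bases across the codon, ggctgcTGAgg. The remaining positions were codon 95 of 116 in MSRB1 (chr16:1940812-1940814, minus strand) and codon 60 of 448 in SEPHS2 (chr16:30445548-30445550, minus strand). The codon was followed by gg in 8 of the 9 members, all but MSRB1.

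A UGA read as a stop well before an exon junction can mark an mRNA for decay, so the junctions are given with it. The last exon junction lay downstream of the codon by 105 bases in GPX1, 102 in GPX2, 240 in GPX3, 342 in GPX4, 71 in TXNRD2 and 34 in MSRB1. In TXNRD1 and TXNRD3 the codon sat in the last exon, 17 of 17 and 16 of 16, and SEPHS2 had a single exon. All 4 glutathione peroxidases thus had a junction downstream, and among the thioredoxin reductases TXNRD2 alone did.

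**Figure D1:**
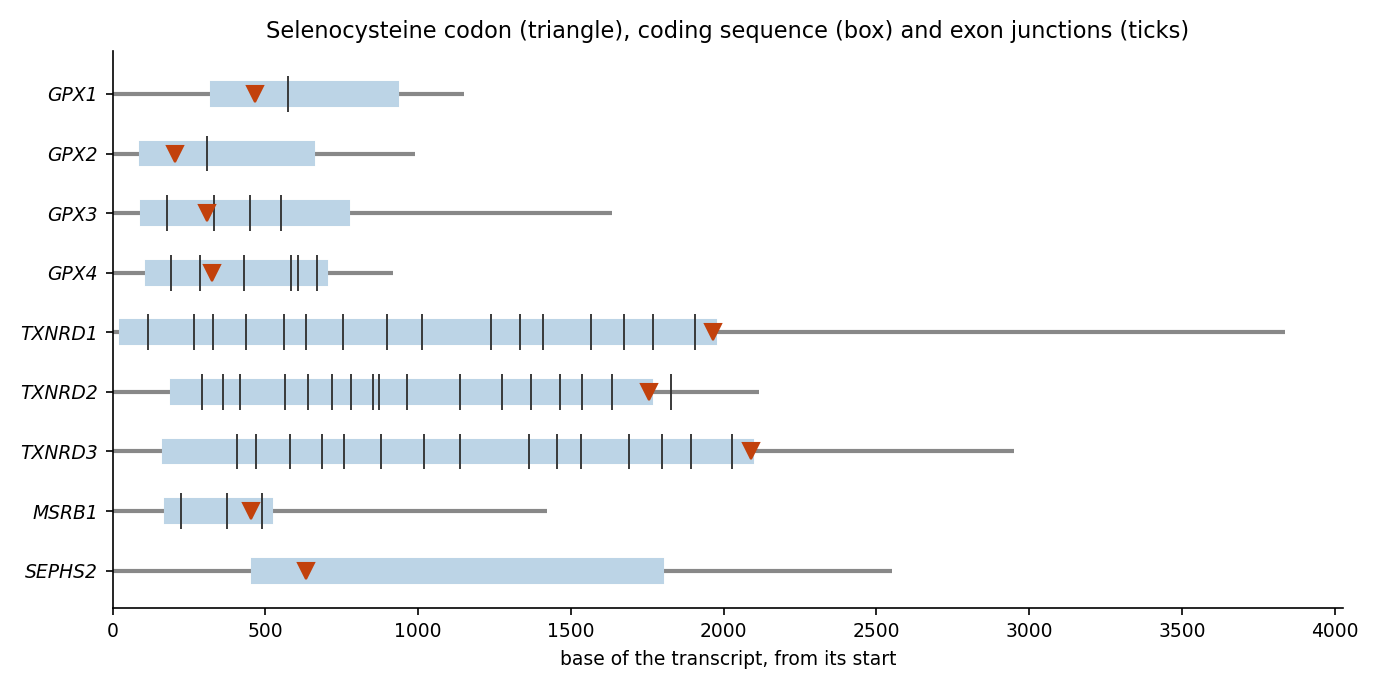
Annotated transcript of each member drawn to scale, with the base of the transcript counted from its start on the horizontal axis. Boxes are coding sequences, ticks are exon junctions and triangles are selenocysteine codons, which stand early in the 4 GPX genes and at codon 648 of 649 in TXNRD1.

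Levels of different genes were compared per length, as TPM (transcript counts scaled by length and library). In control, GPX1, the abundant cytosolic peroxidase, led with 595 ± 6.79 TPM (SD, n = 2). GPX4, which reduces lipid peroxides in membranes, followed with 421 ± 11.5 TPM (SD, n = 2), and TXNRD1, the cytosolic thioredoxin reductase, with 348 ± 8.47 TPM (SD, n = 2). GPX1 exceeded 98.8% of all genes and TXNRD1 97.7%. GPX3, a secreted peroxidase, was at 107 TPM, TXNRD2, the mitochondrial thioredoxin reductase, at 71.2 TPM, SEPHS2 at 53.0 TPM, MSRB1, a methionine sulfoxide reductase, at 21.5 TPM and TXNRD3, a reductase best known from testis, at 4.01 TPM. The 2 libraries of neighbours in this order did not overlap at any step. GPX2, the gastrointestinal peroxidase, had 5 and 1 counts in control, 5 and 2 in SS, and 2 and 1 in SS+NAC, around the floor of 3 counts used here, and no fold change is given for it.

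The order was the same in SS and changed at the top in SS+NAC. There TXNRD1 came first with 827 ± 79.6 TPM (SD, n = 2), ahead of GPX1 with 596 ± 34.5 TPM and GPX4 with 505 ± 19.9 TPM. TXNRD1 made up 21.7% and 21.2% of the summed TPM of the 9 members in the control libraries, 16.8% and 15.2% in SS, and 35.9% and 39.6% in SS+NAC. The summed level of the 3 thioredoxin reductases was 428 and 419 TPM in control, 363 and 354 TPM in SS, and 847 and 955 TPM in SS+NAC. These TPM values carry the trend with transcript length described below, and with the length offset the log2 fold change of TXNRD1 in SS against control was 0.11, not called. The 4 peroxidases summed to 1126 and 1121 TPM in control, 1275 and 1344 TPM in SS, and 1229 and 1205 TPM in SS+NAC. Bulk libraries cannot tell fewer cells that express a gene from less RNA per cell.

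The label of the line was checked against marker genes. PAX8, a thyroid lineage factor, was at 104 to 134 TPM over the 6 libraries. TG was at 0.22 to 0.30 TPM, NKX2-1 at 0.07 to 0.20 TPM, FOXE1 at 0.55 to 1.59 TPM and SLC5A5 at 0.33 to 0.69 TPM, so these 4 markers of follicular cells were near absent. Keratins 8 and 18 were abundant, with KRT8 at 977 to 1398 TPM and the 6 epithelial markers at 1762 to 2571 TPM in sum, while CDH1 was at 0.14 to 0.29 TPM. VIM was at 5744 to 6621 TPM and highest in SS, while FN1, at 661 to 1810.4 TPM, CDH2, ZEB1 and COL1A1 were lowest there. These TPM values too carry the trend with transcript length described below, and no length correction was applied to them. Markers of blood and endothelium summed to 2.14 to 3.58 TPM, led by CD14, and the liver marker APOA1 was at 0 to 0.19 TPM.

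The SS libraries stood apart from the other 4 in a way that bears on every SS comparison, above and below. Across the 14005 tested genes, the log2 fold change of SS against control fell with transcript length (Spearman's rho across genes −0.68), and that of SS+NAC against SS rose with it (rho 0.64). Between SS+NAC and control the rho was −0.04. In the eighth of genes with the shortest transcripts, up to 1407 bases of effective length, the median log2 fold change of SS against control was 0.46 and 69.4% of genes were called higher. In the eighth with the longest, from 6088 bases, the median was −0.46 and 63.3% were called lower. Genes are not independent replicates, and what produced the trend was not tested.

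Most members have short transcripts. The effective length was 914 bases for GPX4, 1138 for GPX1 and 1395 for MSRB1, all in the shortest eighth, and 1786 for GPX3. It was 2230 for TXNRD2, 2361 for SEPHS2 and 2917 for TXNRD3, while TXNRD1, with 3984, was longer than 66.3% of tested genes. Each comparison was therefore also fitted with a length offset, a smooth correction of each library for the trend with transcript length.

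**Figure D2:**
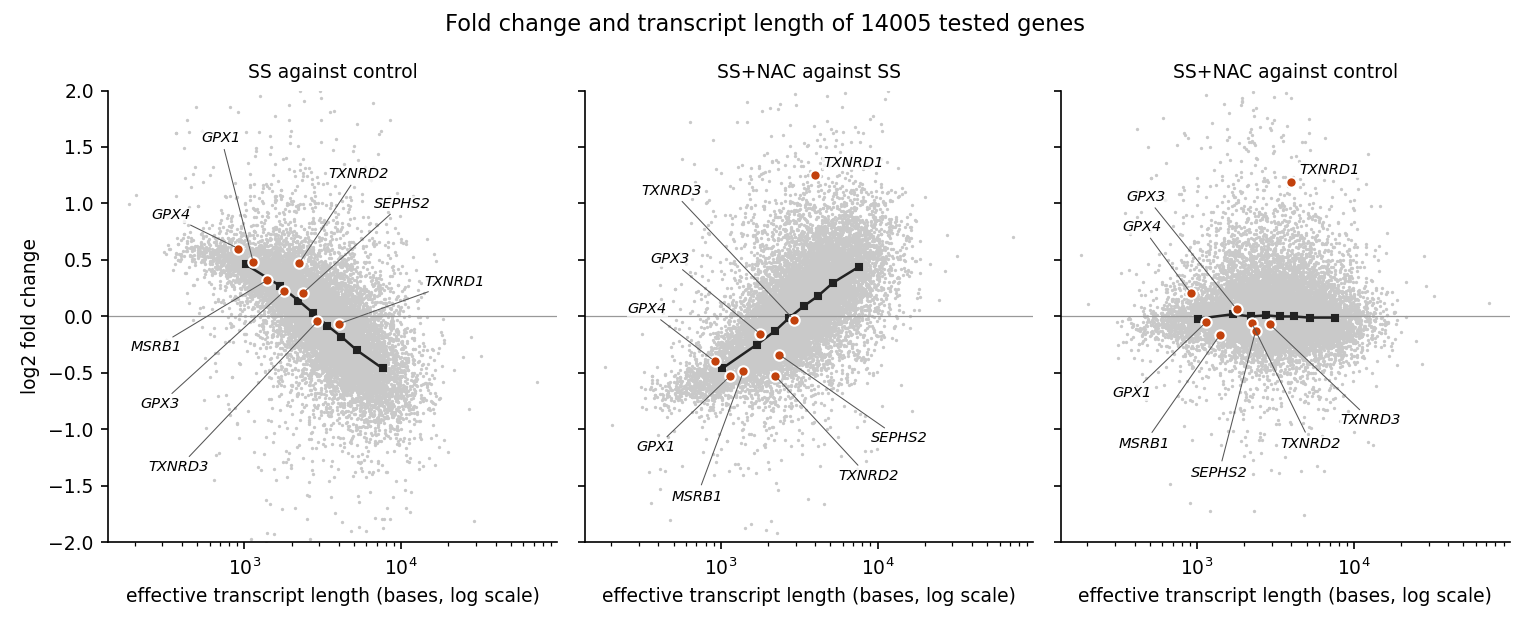
Log2 fold change (vertical axis) against effective transcript length in bases (horizontal log axis) for 14005 tested genes in the 3 comparisons. Grey points are genes, the black line joins the medians of 8 length classes, and the 8 tested members are marked, with the vertical axis ending at ±2, which leaves out 51, 44 and 35 genes from left to right. In the comparison of SS with control, GPX4, GPX1, MSRB1 and GPX3 lie near the line, and TXNRD2 lies above it at 0.47.

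With selenite alone, 5 of the 8 tested members were called higher and none lower. Over all tested genes 40.0% were called in this comparison and 18.6% were called higher. With the length offset 0 of the 8 members were called by edgeR, against 9.23% of all tested genes; 2 had an unadjusted p under 0.05, and DESeq2, which was run without the offset, called 3. These 2 were GPX4 and TXNRD2, and TXNRD2 had the largest log2 fold change with the offset, 0.34. The methods describe the libraries of a group as biological replicates without saying how the cultures were kept apart, and the p-values measure the spread between these libraries.

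GPX4 was at 197 and 193 CPM (counts scaled by library size) in control, 286 and 306 CPM in SS, and 226 and 224 CPM in SS+NAC. In CPM both SS libraries were above all 4 others, and the SS+NAC libraries were above both controls. In TPM SS (533 and 519 TPM) met SS+NAC (491 and 519 TPM), and both groups were above control (429 and 413 TPM). The log2 fold change of SS against control was 0.60 (SE 0.07, a 1.52-fold difference, edgeR adjusted p = 0.00029), the largest among the members. With the length offset it was 0.15 (SE 0.06, edgeR adjusted p = 0.182), in a length class whose median was 0.46 without it.

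GPX1 was at 337 and 349.9 CPM in control, 427 and 530 CPM in SS, and 356 and 307 CPM in SS+NAC. The SS libraries were the highest and differed from each other by more than the control and SS+NAC libraries did from one another. The log2 fold change of SS against control was 0.48 (SE 0.11, edgeR adjusted p = 0.00605), and 0.08 (SE 0.08, edgeR adjusted p = 0.611) with the length offset. GENCODE names 2 pseudogenes of GPX1, and neither is in the table.

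GPX3 did not pass the threshold. It was at 95.0 and 99.2 CPM in control, 108 and 119 CPM in SS, and 107 and 96.6 CPM in SS+NAC, so that the SS libraries were the highest by a narrow margin on this scale. In TPM they were the lowest, at 103 and 103 TPM beside 106 and 108 TPM in control and 118 and 115 TPM in SS+NAC. Its log2 fold change of SS against control was 0.22 (95% interval 0.04 to 0.40, edgeR adjusted p = 0.0545), and −0.01 with the length offset.

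Among the thioredoxin reductases, the mitochondrial TXNRD2 was called and the other 2 were not. TXNRD2 was at 75.9 and 81.1 CPM in control, 96.4 and 121 CPM in SS, and 80.6 and 70.5 CPM in SS+NAC. In CPM the SS libraries again lay above the others, which overlapped, while in TPM SS (71.5 and 83.0 TPM) overlapped control (69.5 and 72.9 TPM). The log2 fold change of SS against control was 0.47 (SE 0.11, edgeR adjusted p = 0.00696) and 0.34 (SE 0.10, edgeR adjusted p = 0.0693) with the length offset, beside a median of 0.14 for its length class.

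TXNRD1 was at 711 and 702 CPM in control and at 669 and 681 CPM in SS. The ranges did not overlap, yet the difference was small, with a log2 fold change of −0.07 (95% interval −0.24 to 0.11, edgeR adjusted p = 0.536). The median of its length class was −0.18, and the length offset turned the value to 0.11 (edgeR adjusted p = 0.324). TXNRD3 was at 6.39 and 5.38 CPM in control and 5.88 and 5.48 CPM in SS, which overlapped, with a log2 fold change of −0.04 (95% interval −0.38 to 0.29).

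The repair enzyme and the selenium donor synthase were called higher by small margins. MSRB1, which reduces oxidised methionine, was at 16.1 and 14.3 CPM in control, 18.1 and 19.8 CPM in SS, and 14.2 and 12.8 CPM in SS+NAC. SEPHS2 was at 63.5 and 63.6 CPM in control, 74.9 and 71.9 CPM in SS, and 57.3 and 58.9 CPM in SS+NAC. In both genes the SS libraries were the highest and the SS+NAC libraries the lowest of the 3 groups in CPM. In TPM, MSRB1 was highest in a control library (22.9 TPM), with means of 21.5 TPM in control and 22.1 TPM in SS. The mean of SEPHS2 was 53.0 TPM in control and 50.6 TPM in SS. The log2 fold changes of SS against control were 0.32 for MSRB1 (edgeR adjusted p = 0.0378) and 0.21 for SEPHS2 (edgeR adjusted p = 0.0377). They were −0.01 and 0.11 with the length offset, neither of them called. Without control replicate 1, or without SS replicate 2, GPX4 was the only member that kept its call, 1 of 8.

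**Figure D3:**
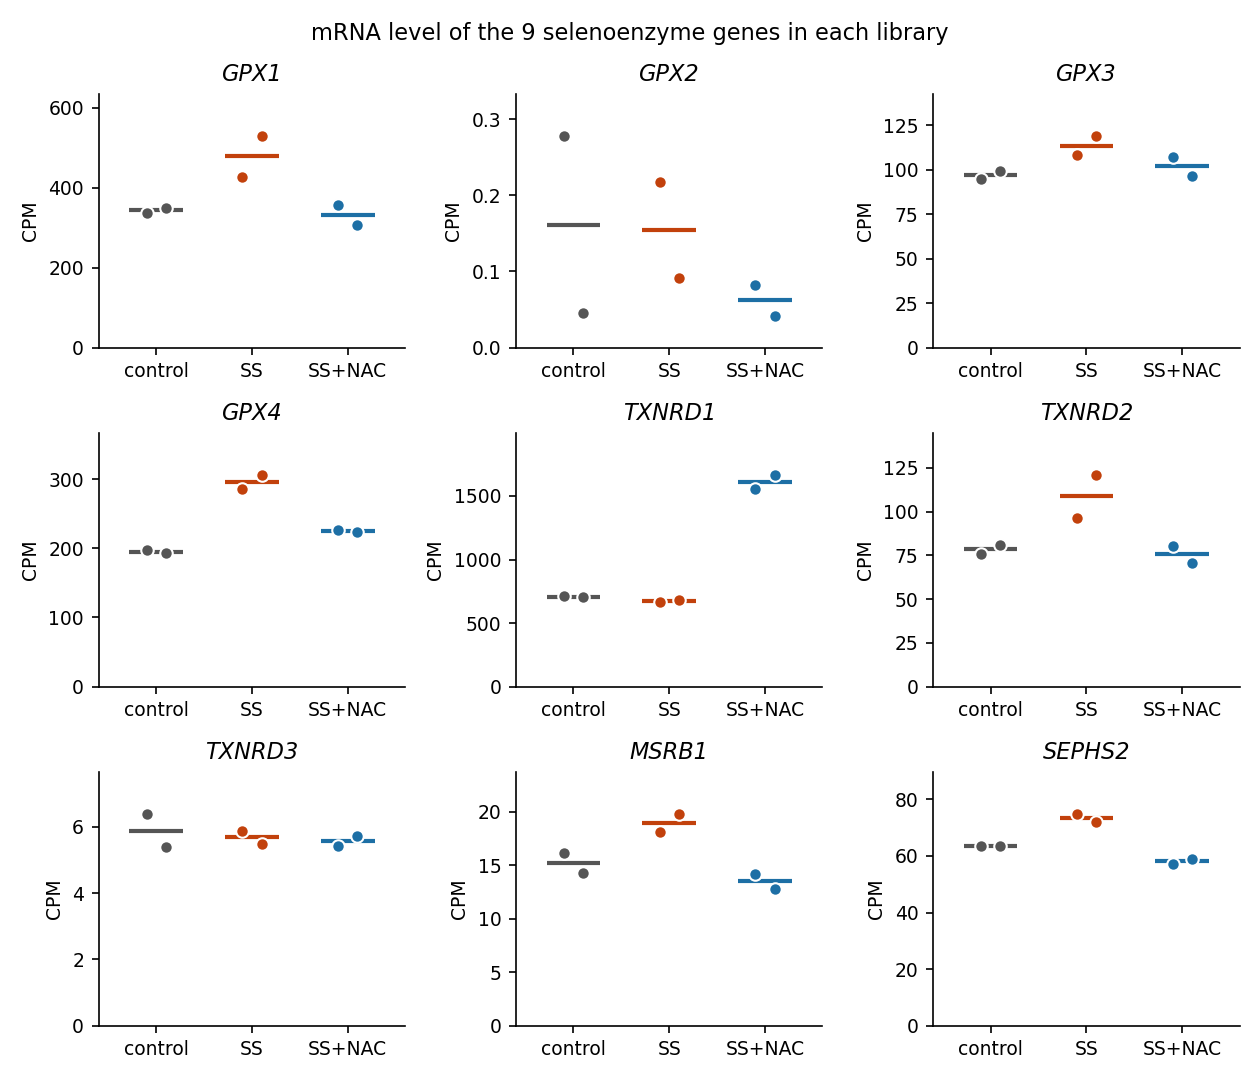
Normalised read counts of the 9 members in CPM (vertical axes, each from 0) by group (horizontal axes). Points are libraries and bars are group means of 2. TXNRD1 stands at 1553 and 1666 CPM in SS+NAC, above its other 4 libraries, while GPX4, GPX1, TXNRD2, MSRB1 and SEPHS2 are highest in SS.

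When NAC accompanied selenite, the members split. Against SS alone, TXNRD1 was higher and 5 members were lower, GPX1, GPX4, TXNRD2, MSRB1 and SEPHS2, which makes 6 of 8 called. Over all tested genes 42.7% were called, 23.1% higher and 19.6% lower. The log2 fold changes of the lower members were −0.53 for GPX1, −0.53 for TXNRD2, −0.49 for MSRB1, −0.40 for GPX4 and −0.34 for SEPHS2, with edgeR adjusted p between 0.00182 and 0.00495. GPX3 had −0.15 (95% interval −0.34 to 0.03) and TXNRD3 −0.03 (95% interval −0.36 to 0.30).

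With the length offset 3 of the 8 members were called against SS, beside 14.4% of all tested genes. They were TXNRD1, at a log2 fold change of 1.08, and the lower TXNRD2, at −0.41 (edgeR adjusted p = 0.025), and SEPHS2, at −0.25 (edgeR adjusted p = 0.034). GPX4 changed sign, to 0.07 (edgeR adjusted p = 0.504).

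TXNRD1 was also the only member called between SS+NAC and control, 1 of 8. In this comparison 2.01% of tested genes were called and 1.36% were called higher, and with the length offset the share was again 2.01%. Its level was 711 and 702 CPM in control, 669 and 681 CPM in SS, and 1553 and 1666 CPM in SS+NAC. Both SS+NAC libraries held more than any of the other 4, with no overlap. The log2 fold change was 1.19 against control (SE 0.08, a 2.28-fold difference, edgeR adjusted p = 1.64e-05) and 1.25 against SS (SE 0.08, a 2.38-fold difference, edgeR adjusted p = 1.93e-05). The length offset left the value against control at 1.19 (SE 0.06), and leaving out any library in turn gave between 1.14 and 1.24.

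In absolute terms the change in TXNRD1 was large for the transcriptome. The mean gain over control was 903 CPM, which ranked 3 among tested genes, although its fold change ranked 47 among the 190 genes called higher. The other 7 tested members had log2 fold changes of SS+NAC against control from −0.17, in MSRB1, to 0.20, in GPX4. The 95% interval for GPX4 was 0.04 to 0.37 and its edgeR adjusted p was 0.204. Those for GPX1 (−0.29 to 0.19), TXNRD2 (−0.30 to 0.19) and SEPHS2 (−0.29 to 0.03) included 0. EID3, a gene within the span of TXNRD1 on the same strand that shares no exonic base with it, was at 0.167 and 0.588 CPM in control, 0.741 and 0.365 CPM in SS, and 2.36 and 1.83 CPM in SS+NAC.

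**Figure D4:**
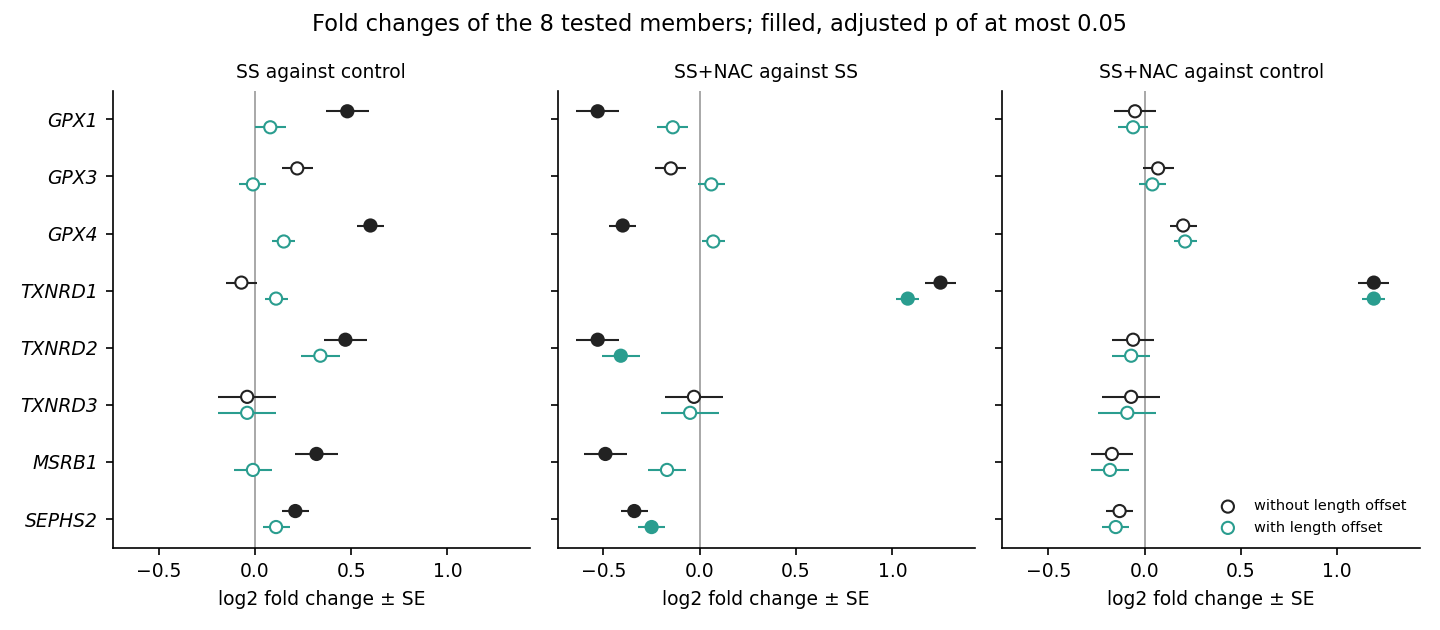
Log2 fold changes of the 8 tested members (horizontal axes, with SE from edgeR) in the 3 comparisons, without (black) and with (green) the length offset. Filled points have an adjusted p of at most 0.05. TXNRD1 is at 1.19 in both fits against control, while GPX4 moves from 0.60 to 0.15 in SS against control.

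TXNRD1 belongs to the genes that the transcription factor NRF2 activates through antioxidant response elements, so promoters were searched for the core of that element, TGACNNNGC, on both strands. RefSeq windows on GRCh38.p14 from 250 bases before to 50 bases after the start, the first listed for each gene, were found for all 9 members. Of 27305 such windows 3702 held the motif (13.6%), and of the 9 members TXNRD1 and GPX2 did. The TXNRD1 window held it at 2 places. The first began 99 bases before the start, on the strand of the gene. The second began 8 bases before the start, on the opposite strand, and ran onto the start base itself. GCLM, which encodes a subunit of the enzyme that begins glutathione synthesis, held it 34 bases before its start. Of the windows found for the partners 3 of 14 held the motif (GCLM, RRM1 and SLC3A2), and of those for NRF2 and its targets 3 of 17 (PGD, ME1 and CBR1). The other selenoproteins listed below held it in 3 of 14 (SELENON, SELENOK and SELENOP). It was in 2 of 11 windows of the selenocysteine synthesis and insertion genes and in 0 of 6 of the selenium-free relatives. The windows of SRXN1, OSGIN1, NQO1 and GCLC did not hold these letters, and those of SLC7A11, HMOX1 and GSR were not analysed here. The stretches around the first TXNRD1 match and the GCLM match lie upstream of the start. They are shown with the motif, or its reverse complement in GCLM, in capitals (TXNRD1 chr12:104215660-104215708, plus strand, and GCLM chr1:93909436-93909484, minus strand). A match is a description of letters and not a bound site.
TXNRD1 promoter: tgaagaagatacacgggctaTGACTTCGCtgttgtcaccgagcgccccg
GCLM promoter: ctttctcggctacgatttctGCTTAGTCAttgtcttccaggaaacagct

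Genes that work with the members were counted in the same comparison. Of 20 thioredoxin and glutathione partners, all tested, 5 were called higher in SS+NAC than in control and 0 lower, beside 1.36% of all tested genes called higher. The median log2 fold change was 0.00, the same as over all tested genes. The 5 genes were SLC7A11, the cystine transporter, SRXN1, which repairs peroxiredoxins, GCLM and GCLC, the subunits of glutamate-cysteine ligase, and SLC3A2, the partner chain of SLC7A11. The 6 peroxiredoxins, thioredoxin itself, the substrate of TXNRD1, and the glutathione genes GSS and GGCT were among the 15 not called.

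SLC7A11 was at 32.8 and 36.0 CPM in control, 22.8 and 23.2 CPM in SS, and 133 and 168 CPM in SS+NAC. Its log2 fold change against control was 2.13 (SE 0.11, a 4.37-fold difference, edgeR adjusted p = 2.36e-06). SRXN1 was at 136 and 139.6 CPM in control, 147 and 143 CPM in SS, and 334 and 349 CPM in SS+NAC. In both genes the SS+NAC libraries exceeded all others, and SRXN1, like TXNRD1, was not called between SS and control. The log2 fold change of SRXN1 against control was 1.31 (SE 0.07, a 2.48-fold difference). GCLM had 0.91, GCLC 0.75 and SLC3A2 0.54. SLC3A2 was already higher in SS than in control, at 0.44, which the length offset reduced to 0.25 (edgeR adjusted p = 0.0817), and was not called between SS+NAC and SS (0.09, edgeR adjusted p = 0.428).

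Of 8 selenium-free relatives of the members, 7 were tested and 1 was called between SS+NAC and control, beside 2.01% of all tested genes. It was GSR, glutathione reductase, the counterpart of the thioredoxin reductases for glutathione. GSR was at 59.9 and 58.4 CPM in control, 62.0 and 61.2 CPM in SS, and 96.5 and 101 CPM in SS+NAC, with no overlap between SS+NAC and the rest. Its log2 fold change against control was 0.74 (SE 0.07, edgeR adjusted p = 0.000335).

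Of 22 genes listed as NRF2 and its targets, 21 were tested, 8 were called higher in SS+NAC than in control and 0 lower, with a median log2 fold change of 0.47 beside 0.00 over all tested genes, of which 1.36% were called higher. The 8 became 3 without control replicate 1, 3 without control replicate 2 and 5 without SS+NAC replicate 2. OSGIN1, a stress-induced growth inhibitor, was at 11.7 and 13.1 CPM in control, 20.8 and 22.0 CPM in SS, and 50.4 and 42.7 CPM in SS+NAC, a stepwise rise across the groups with no overlap. Its log2 fold change was 1.90 against control (edgeR adjusted p = 4.03e-06), and 0.78 for SS against control. AKR1C3, an aldo-keto reductase, had 1.15. HMOX1, heme oxygenase, had 0.85 and NQO1, a quinone reductase, 0.51, genes chosen after their values were seen. NFE2L2, the gene of NRF2, had 0.14 and was not called.

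Of 16 other selenoproteins listed, 11 were tested and 0 were called between SS+NAC and control by edgeR, beside 2.01% of all tested genes. Of the 11, 1 had an unadjusted p under 0.05, DESeq2 also called 0, and 1 was called without SS+NAC replicate 1. Their median log2 fold change was 0.03. Of 14 genes for selenocysteine synthesis and insertion 13 were tested and 1 was called, LRP8, a receptor that takes up selenoprotein P. With Bonferroni adjustment of edgeR's p-values 0 of these 13 were called. LRP8 was at 56.9 and 59.9 CPM in control, 43.8 and 40.0 CPM in SS, and 92.1 and 91.1 CPM in SS+NAC. In CPM the 3 groups did not overlap, with SS lowest and SS+NAC highest. The log2 fold change of SS+NAC against control was 0.65 (SE 0.08, edgeR adjusted p = 0.00154). That of SS against control was −0.48, which the length offset brought to −0.16 (edgeR adjusted p = 0.218), not called.

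In SS against control, where 40.0% of all tested genes were called and 18.6% were called higher, the lists held more calls. Of the 11 tested selenoproteins outside the 9 members, 5 were higher and 3 lower, with a median log2 fold change of 0.22 beside 0.00 over all tested genes. DIO2 was at a low level, 1.45 and 1.99 CPM in control and 0.959 and 0.731 CPM in SS. SELENOM (effective length 695 bases, 0.65) and SELENOH (1429 bases, 0.51) were higher, and SELENOI (8252 bases, −0.69) and DIO2 (6387 bases, −1.03, SE 0.31) were lower. Their 8 calls became 5 without control replicate 2 and 5 without SS replicate 2. With the length offset the median was −0.01 and 0 of the 11 were called by edgeR, beside 9.23% of all tested genes in that fit; 3 had an unadjusted p under 0.05, and DESeq2 without the offset called 6. Of the 13 selenocysteine synthesis and insertion genes 6 were higher and 3 lower, with a median of 0.19, among them PSTK (0.58), TRNAU1AP (0.53), RPL30 (0.48) and SECISBP2L (−0.67). These 9 calls became 3 without control replicate 1 and 5 without SS replicate 2. With the offset 1 was called, ELAVL1, an RNA-binding protein, at 0.52, and the median was 0.06. Without the offset ELAVL1 had 0.19 (edgeR adjusted p = 0.106) and was not called.

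Of the 20 partners 13 were higher and 1, SLC7A11 (−0.58), was lower in SS than in control, with a median log2 fold change of 0.36, or 0.06 with the length offset. The largest of the rest were PRDX2 (0.63), GLRX2 (0.58) and TXN (0.57), and with the length offset 1 gene was called, TXNIP, the thioredoxin inhibitor, at 0.47, beside 9.23% of all tested genes called in that fit. Of the 7 relatives tested 2 were higher, MSRB2 (0.54) and MSRA (0.35), and 1 was lower, MSRB3 (−0.35), all methionine sulfoxide reductases, and the 3 calls became 1 without control replicate 2. None of the 7 was called by edgeR with the offset, 0 in all, where 1 had an unadjusted p under 0.05 and DESeq2 without the offset called 3. Of the 21 NRF2 genes tested 14 were higher and 1 lower, with a median of 0.43, led by BLVRB (0.81), OSGIN1 (0.78), AKR1C3 (0.66) and AKR1B1 (0.59). With the length offset the median of these 21 was 0.18 and 4 were called, all higher, BLVRB, OSGIN1, NQO1 and PGD.

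**Figure D5:**
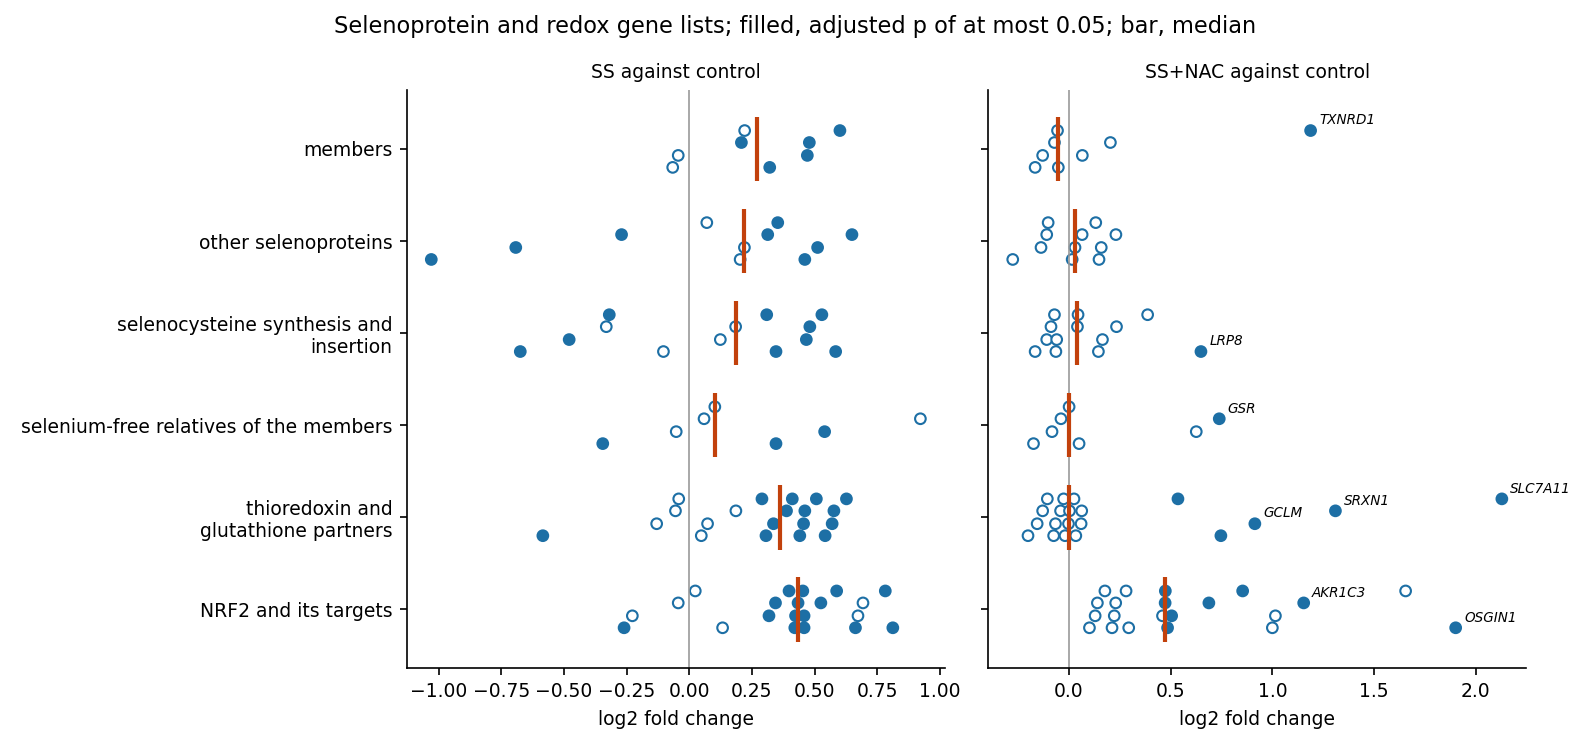
Log2 fold changes (horizontal axes) of the members and of 5 lists of related genes in SS against control and in SS+NAC against control. Each point is a tested gene, filled where the adjusted p is at most 0.05, and bars are medians. In SS+NAC against control TXNRD1 (1.19), SRXN1 (1.31), SLC7A11 (2.13) and OSGIN1 (1.90) stand to the right, while the 11 other selenoproteins are unfilled, with a median of 0.03.

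The genes whose pattern over the 6 libraries came closest to that of GPX4, the member with the largest called change in SS, were MRPS36, PSMB10 and COA6. The root mean square differences of their centred log2 CPM from GPX4 were 0.0196, 0.0321 and 0.0343, among 12918 genes. MRPS36 is named for the mitochondrial ribosome, PSMB10 for the proteasome and COA6 for cytochrome c oxidase assembly, and their effective lengths were 1318, 989 and 710 bases. On a log2 (TPM + 1) scale NOL3 took the place of COA6. For TXNRD1, chosen after its values were seen, SRXN1 came first on both scales, with a difference of 0.0685, followed by F2RL2 (0.105) and GCLM (0.126) on the log2 CPM scale, and by CTH and ADM2 on the other.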

How the data were processed

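Polyadenylated RNA was sequenced by the authors in single-end reads, which the submitters' processing notes tie to HISAT2 2.0.4, Bowtie2 2.2.5 and RSEM 1.2.12. The deposited table holds, for each library, the expected counts that the authors estimated with RSEM. It also holds FPKM values that the authors computed from these counts and effective lengths, and the TPM values deposited beside them. The log2 fold changes, p-values and q-values of the authors' own DESeq2 comparisons and the deposited group averages were not used. The use of strand in counting is not given in the sources used here.

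Expected counts were rounded, filtered with filterByExpr (14005 genes kept), scaled by TMM and fitted with edgeR 4.0.16 (R 4.3.3). All 6 libraries entered 1 quasi-likelihood fit with 3 group means, and p-values were adjusted by Benjamini-Hochberg over all tested genes, with calls at 0.05 or less. CPM used the TMM factors, and log2 CPM a prior count of 2. SE is the log2 fold change over the root of the F statistic, and 95% intervals use the t distribution of the fit. Effective lengths were derived from counts and FPKM. The length offset is a lowess fit (span 0.3) of each library's log2 CPM deviation on log length. DESeq2 1.42.0 served as an alternative, beside other scalings, filters, a replicate block and the omission of each library. The fit was tested on simulated counts. The biological coefficient of variation was 6.74%. Replicates varied more than counting error, with a chi-square per degree of freedom of 3.05 in control, 7.12 in SS and 11.72 in SS+NAC.

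The members and the gene lists were chosen with earlier results of these data known. All members are given. From each list the text names up to 4 called genes with the largest absolute log2 fold change of SS against control and up to 2 for SS+NAC against control, at a mean of 1 CPM or more in a group. It also names the 3 genes nearest in pattern to the called member with the largest change in SS, a gene within the span of a member, and the genes of counts of 5 or fewer. Other list genes are named outside these rules, among them GCLM, GCLC, SLC3A2, ELAVL1, TXNIP, PGD, HMOX1, NQO1 and NFE2L2. Some items are not reported here. Coordinates and codons come from GENCODE 29, using the principal transcript with 1 annotated selenocysteine.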

Additional observations from a re-analysis of the deposited data

How the results depend on the processing

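TXNRD1 was called higher in SS+NAC, against control and against SS, under every alternative run. The members called in SS against control (5) depended on several choices. They came to 3 with the DESeq2 Wald test, 3 with the replicate block, 0 with Bonferroni adjustment of edgeR's p-values (6 had an unadjusted p under 0.05), 0 with the length offset and 0 with the length offset and replicate block. Against SS, 6 members became 1 with Bonferroni, 3 with the length offset and 2 with the offset and block, which lost SEPHS2 (−0.25, adjusted p = 0.088). Over all genes, Bonferroni gave 220, 191 and 40 calls for SS against control, SS+NAC against SS and SS+NAC against control. The length offset gave 1292 and 2019 for the first pair of comparisons, and 851 and 1366 with the replicate block. With the length offset, alone or with the block, MSRB1 in SS against control turned to −0.01 and GPX4 in SS+NAC against SS to 0.07. The offset by its construction removes what moves with length.

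Leaving out each library gave 3118 to 6579 genes and 1 to 6 members for SS against control, 3250 to 6339 genes and 5 to 7 members for SS+NAC against SS, and 98 to 1086 genes and 1 member for SS+NAC against control. The 8 NRF2 genes called in SS+NAC against control became 3 without either control library, 5 without SS+NAC replicate 2 and 3 with Bonferroni. The lone library left is assumed to vary like the other groups. The lowest counts for SS against control came without control replicate 1 (3118) or SS replicate 2 (3164), and the highest for SS+NAC against control without SS+NAC replicate 1 (1086). Why was not tested. Deviations of equally numbered libraries correlated at 0.11, −0.11 and −0.17, so the numbers were not taken to pair them, and a call lost under the replicate block is not read as a weaker effect. GPX3 in SS against control, not called in the fit reported, was called with at least 10 counts in every library, with the compared libraries only, and without either SS+NAC replicate.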
